A study of Homo sapiens with 6 samples.

Results

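The lysosome is described here through 48 genes for its digestive enzymes, membrane proteins, acidifying proton pump and transcription factors, with their RNA levels in SK-MES-1, a cell line grown from a human lung squamous carcinoma. The genes were chosen by name and not by a rule on their values, though with earlier results of these data known. They are 19 hydrolases, 2 lumenal cofactors, 8 membrane proteins, 16 proton pump genes and 3 transcription factors of 58735 genes in the deposited table. The study compared cells with a transient knockdown of KRT6A, a keratin gene, with control cells, and its title names radiotherapy resistance and autophagy. The labels name 6 libraries in 3 groups of 2: NC, read here as the control, and si1 and si2, read here as knockdowns with different reagents. No dose, time, genotype or reagent sequence was given in the sources used here. Nothing in the labels says that the replicates of a group came from separate cultures, so the p-values measure the spread between these libraries, which may be technical.

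Lysosomes are acidic compartments in which proteins, lipids, glycans and material delivered by autophagy are broken down. Hydrolases work there at low pH, which the vacuolar proton pump maintains by driving its membrane sector, V0, with ATP hydrolysed by its outer sector, V1. Lysosomal membrane proteins shield the limiting membrane, carry enzymes and lipids, and hold the machinery that senses amino acids. TFEB, TFE3 and MITF are related transcription factors that bind the DNA letters CACGTG, most often as TCACGTG, and are known to switch on many lysosome genes.

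The promoters of the genes were searched for these letters, because they are the best known sequence shared by lysosome genes. RefSeq windows of 250 bases before to 50 bases after the start site (GRCh38.p14) matched 34 of the 48 genes. TCACGTG stood on either strand in 11 of the 34 (32.4%), in 20 of 95 matched promoters of other lysosome genes (21.1%) and in 3.71% of all 35116 promoters. CACGTG, which TCACGTG contains, stood in 12 of the 34 (35.3%) and in 7.26% of all. The longer palindrome TCACGTGA stood in 6 of the 34 (17.6%) and in 0.98% of all. The carriers of TCACGTG were CTSA, CTSD, CTSF, NEU1, GAA, LAMP1, LAMTOR1, MCOLN1, ATP6V0B, ATP6V0D1 and ATP6V1G1. CD63 held CACGTG alone. The letters were chosen because lysosome genes are known to share them, so a higher share here is a description and not a new result. The share of all promoters also counts genes whether or not they were expressed, while 1 promoter was taken for each of the 34.

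LAMP1 held the most copies, 6, of which 2 were the longer palindrome. It is printed in full because it is also the gene whose level differed most between the groups. Its stretch is chr13:113297035-113297255 on the plus strand, written 5′ to 3′ with the motif in capitals.
LAMP1: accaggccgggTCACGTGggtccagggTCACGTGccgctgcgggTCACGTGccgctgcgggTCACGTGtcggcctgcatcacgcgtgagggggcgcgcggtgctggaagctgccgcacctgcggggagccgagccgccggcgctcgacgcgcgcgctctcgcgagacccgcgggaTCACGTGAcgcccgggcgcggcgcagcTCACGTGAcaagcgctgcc

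For 6 other carriers whose levels are described below, 30 bases around a motif are shown, each on the strand of its gene. They are CTSD (chr11:1763957-1763986, minus strand), NEU1 (chr6:31862930-31862959, minus), GAA (chr17:80101538-80101567, plus), LAMTOR1 (chr11:72103445-72103474, minus), MCOLN1 (chr19:7522598-7522627, plus) and ATP6V0D1 (chr16:67481199-67481228, minus). In CTSD the capitals CACGTGA are TCACGTG read on the other strand.
CTSD: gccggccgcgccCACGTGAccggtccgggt
NEU1: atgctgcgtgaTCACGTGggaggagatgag
GAA: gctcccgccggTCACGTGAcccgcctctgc
LAMTOR1: ctttccccgcaTCACGTGcttgcgtgtacg
MCOLN1: gggctaccgggTCACGTGAccgaggcacag
ATP6V0D1: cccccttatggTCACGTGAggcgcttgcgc
A match is a description of these letters and not evidence of binding. Genes with the motif did not all move in 1 direction. Of the 11 carriers, 2 were higher and 4 lower in si1 than in NC, and 2 higher and 2 lower in si2. Of the 23 matched genes without it, 4 were higher and 4 lower in si1, and 5 higher and 3 lower in si2. Of all genes tested, 9.47% were higher and 12.9% lower in si1, and 13.6% and 15.4% in si2. Between si2 and si1, 2 carriers were higher and 5 lower in si2. Of the 23 others, 5 were higher and 5 lower, and of all genes 19.9% and 18.6%. Whether carriers differ from the others was not tested.

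The libraries held 14948607 to 17401392 reads each, and 12333 to 12439 genes at 1 FPKM or more. FPKM is fragments per kilobase of gene length, scaled by the depth of the library. Reads from mitochondrial genes made up 7.82% to 8.73%, and reads from the 48 genes 0.785% to 0.893%. Within a group the libraries correlated at 0.983 to 0.987 over genes, against 0.947 to 0.967 between groups. The si1 libraries differed more from each other than the other pairs did, with a chi-square of their reads of 9.02 per gene against 3.65 in NC and 3.57 in si2, and between groups it was 31.4 to 53.6. KRT6A, the targeted gene, had 0 reads in each of the 6 libraries, NC included, where 3 reads would allow at most 0.0678 FPKM, so the knockdown could not be checked from its level. Of 6 squamous markers, TP63 was at 5.34 to 12.8 FPKM and SOX2 at or below 1.03. KRT5, KRT6A, KRT14 and DSG3 were at or near 0. Of 5 simple epithelium markers, the keratins KRT8, KRT18 and KRT19 were at 39.6 to 116 FPKM, EPCAM at 3.56 to 5.33, and CDH1 at or below 0.256.

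All 48 genes passed the filter of a mean of 1 FPKM, 1 of them, TFEB, only through the knockdown groups. The test was limma on log2(FPKM + 1) over 12319 genes, with p-values adjusted by Benjamini-Hochberg over all of them. In si1, 8 of the 48 were higher than in NC, where 9.47% of all genes tested were higher, and 10 were lower, where 12.9% were. In si2, 9 were higher, against 13.6% of all genes, and 6 were lower, against 15.4%. As shares of the 48, these are 16.7% and 20.8% in si1 and 18.8% and 12.5% in si2. The share changed in si2, 31.2%, was near that of all genes, 29%. In si1 it was 37.5% against 22.4%, but where the mean had to reach 5 FPKM it was 14 of 39, or 35.9%, against 33% of all genes at that level.

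The genes did not move in 1 direction. Their median log2 change was 0.03 in si1 and 0.05 in si2, beside −0.01 and 0.00 for all genes tested. Directly compared, si2 was higher than si1 for 11 of the 48 genes, where 19.9% of all genes were, and lower for 14, where 18.6% were. With si1 and si2 averaged, 10 were higher and 9 lower than in NC, where 8.73% and 11.8% of all genes were. This average is tested against the spread within groups, so a gene that moved in 1 knockdown group can be called. LAMP1 was called at −0.97 though it was at −0.07 in si1. With the 4 knockdown libraries fitted as 1 group, 0 of the 48 were called, where 0.682% of all genes were. The 2 comparisons with NC share the NC libraries, so each gene's values are given side by side and no agreement between them is counted. Leaving out 1 library left 4 to 14 of the 48 called in si1, 4 without NC replicate 1, 7 without NC replicate 2 and 10 without si1 replicate 1. These are 8.33%, 14.6% and 20.8% of the 48, where 8.85%, 10.2% and 19.7% of all genes were called, so without NC replicate 1 or si1 replicate 1 the share was near that of all genes. The same in si2 left 6 to 19, 6 without si2 replicate 1 and 8 without either NC library, or 12.5% and 16.7%. Beside them, 13.4% of all genes were called without si2 replicate 1, 13.4% without NC replicate 1 and 12.1% without NC replicate 2.

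**Figure D1:**
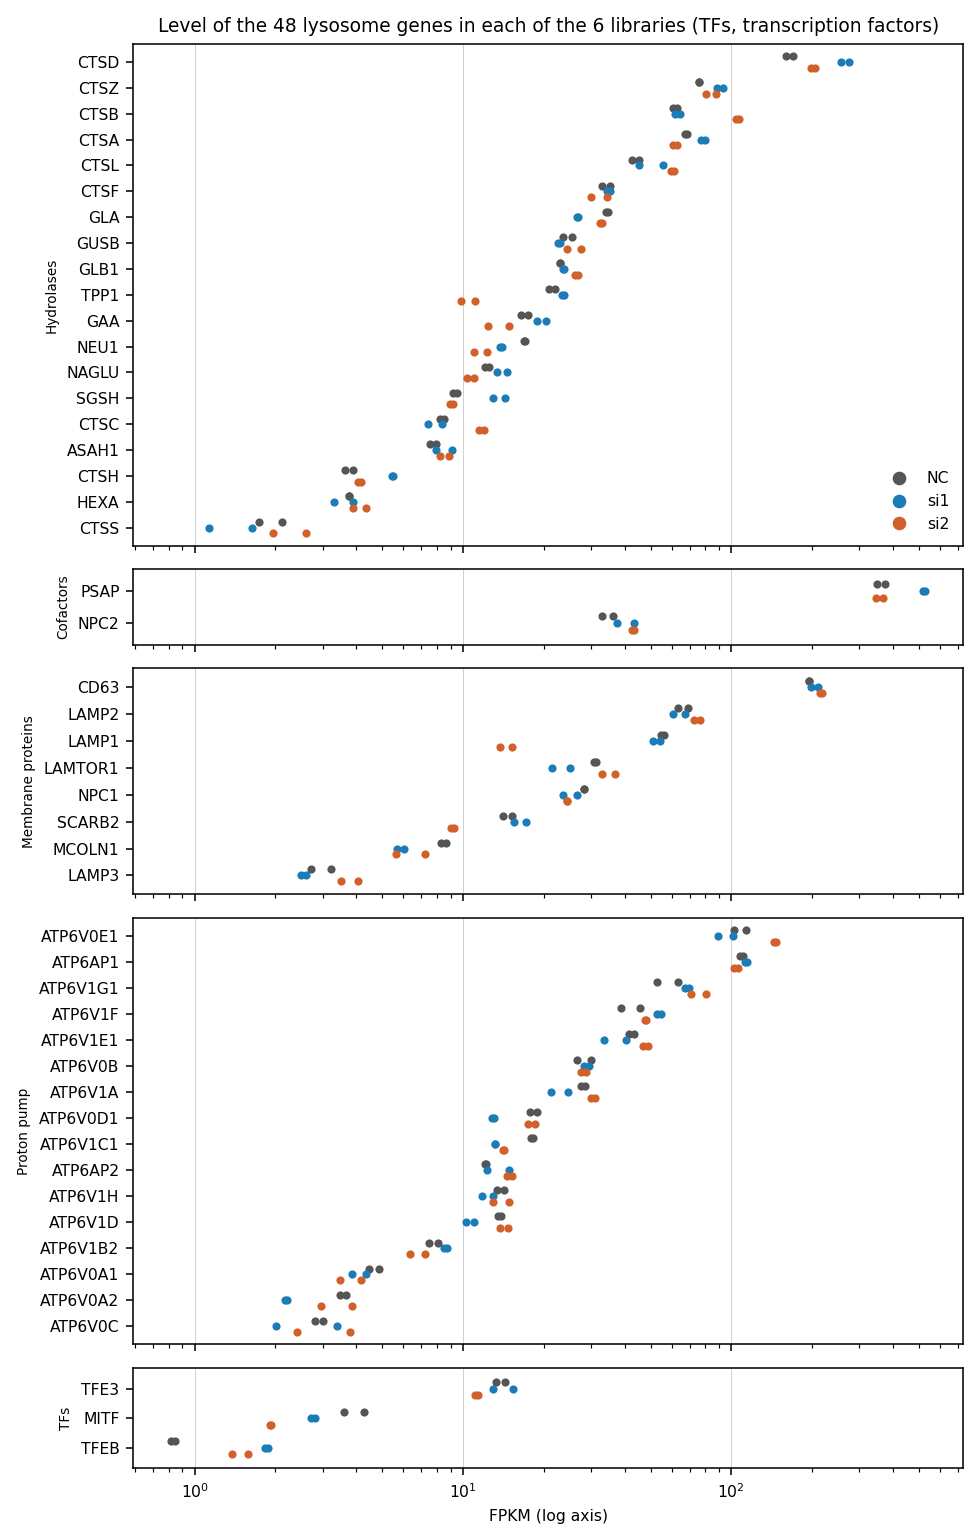
FPKM of each of the 48 genes on a log axis, with 1 point per library coloured by group and genes ordered by mean level within their class. Levels spanned from TFEB, at 0.816 in an NC library, to PSAP, at 529 in an si1 library.

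The cathepsins are the main lysosomal proteases. Of the 9, 4 were higher and 0 lower in si1 than in NC, and 4 were higher and 0 lower in si2. The genes differed: they were CTSA, CTSD, CTSH and CTSZ in si1, and CTSB, CTSC, CTSD and CTSL in si2. In the lower direction limma had 0 in si1 and 1 in si2 at an unadjusted p under 0.05, and limma voom called 0 in each. Of all genes tested, 9.47% were higher and 12.9% lower in si1, and 13.6% and 15.4% in si2. The summed level of the 9 was 467 and 458 FPKM in NC, 589 and 606 in si1, and 557 and 570 in si2, so the knockdown libraries all lay above both NC libraries. The largest rise was that of CTSD in si1 and that of CTSB in si2.

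CTSD (ENSG00000117984, chr11:1752752-1764573), an aspartic protease and the most abundant hydrolase of the set, was at 170 and 160 FPKM in NC, 257 and 274 in si1, and 199 and 205 in si2. All si1 libraries were above all si2 libraries, which were above both NC libraries. The log2 change was 0.68 in si1 (SE 0.0573, adjusted p = 4.93e-04) and 0.29 in si2 (SE 0.0573, adjusted p = 0.0112), and si2 was lower than si1 by −0.39 (SE 0.0573, adjusted p = 0.00219). The call in si1 held without each library in turn. That in si2 was lost without NC replicate 2 or either si2 library. Of the exon bases of CTSD, 41.7% also belong to AC068580.4, a gene on the same strand at 0.0871 to 0.413 FPKM, so reads there cannot be assigned with certainty.

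CTSB, a cysteine protease, was at 62.5 and 60.6 FPKM in NC, 64.3 and 61.4 in si1, and 104 and 106 in si2. The si2 libraries stood far above the rest, and NC and si1 overlapped. CTSB rose in si2 by 0.76 (SE 0.0561, adjusted p = 3.1e-04), was at 0.03 in si1 (SE 0.0561, adjusted p = 0.748), and differed between si2 and si1 by 0.73 (SE 0.0561, adjusted p = 1.81e-04).

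CTSC, a dipeptidyl peptidase that activates other proteases, was at 8.20 and 8.52 FPKM in NC, 7.42 and 8.32 in si1, and 11.9 and 11.4 in si2. It was highest in both si2 libraries, with NC and si1 overlapping. The log2 change was 0.44 in si2 (SE 0.0803, adjusted p = 0.00827), a call lost without NC replicate 1 or si2 replicate 1, and −0.08 in si1 (SE 0.0803, adjusted p = 0.522). The direct difference, 0.52 (SE 0.0803, adjusted p = 0.00278), held without each library in turn.

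CTSL, a cysteine endopeptidase, rose in si2 by 0.45 (SE 0.0962, adjusted p = 0.0141). CTSH, an aminopeptidase, rose in si1 by 0.44 (SE 0.0817, adjusted p = 0.0103), and CTSZ, a carboxypeptidase, by 0.26 (SE 0.0637, adjusted p = 0.0275). CTSA, a carboxypeptidase that also protects NEU1 and beta-galactosidase in a complex, rose in si1 by 0.20 (SE 0.0555, adjusted p = 0.0411) and was lower in si2 than in si1 by −0.34 (SE 0.0555, adjusted p = 0.00352). These were narrower calls than those of CTSD and CTSB. The CTSL call was lost without any 1 of the NC or si2 libraries, the CTSH call without NC replicate 1, the CTSZ call without either NC library or si1 replicate 1, and the CTSA call in si1 without any 1 library other than si1 replicate 2. CTSF and CTSS, both cysteine proteases, were not called in any comparison by limma on log2(FPKM + 1), with values from −0.30 to 0.46. Limma voom called CTSS higher in si2 than in si1, by 0.71 (adjusted p = 0.0188), and CTSL likewise, by 0.26 (adjusted p = 0.0177). CTSS rested on 78 to 166 reads per library. Of the exon bases of CTSA, 28.5% lie opposite other genes, so without known strand handling its reads are uncertain.

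The other 10 hydrolases cut glycans, lipids and peptides. Of these, 1 was higher and 2 lower in si1, where 9.47% and 12.9% of all genes were. In si2, 1 was higher and 2 lower, where 13.6% and 15.4% of all genes were. In the direct comparison 1 was higher and 5 lower in si2 than in si1, where 19.9% and 18.6% of all genes were. The summed level of the 10 was 171 and 170 FPKM in NC, 171 and 169 in si1, and 148 and 158 in si2. Both si2 libraries were lowest.

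TPP1 (ENSG00000166340, chr11:6612763-6619485), which removes tripeptides from the ends of proteins, was at 22 and 20.9 FPKM in NC, 23.9 and 23.4 in si1, and 9.85 and 11.1 in si2. Its si2 level was 0.489 of that in NC, and no si2 library overlapped another group. The log2 change was −0.97 in si2 (SE 0.0774, adjusted p = 4.24e-04) and 0.13 in si1 (SE 0.0774, adjusted p = 0.258), and the difference between si2 and si1 was −1.10 (SE 0.0774, adjusted p = 1.33e-04). AC091564.7, which shares 11.6% of the exon bases of TPP1 on the same strand, had 0 FPKM throughout.

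NEU1, the sialidase that removes sialic acid from glycans, was at 17.1 and 16.9 FPKM in NC, 14 and 13.7 in si1, and 11 and 12.3 in si2. The 3 groups did not overlap and both knockdown groups lay below NC. NEU1 fell by 0.28 in si1 (SE 0.0759, adjusted p = 0.0407) and by 0.51 in si2 (SE 0.0759, adjusted p = 0.00383), and si2 was lower than si1 by −0.23 (SE 0.0759, adjusted p = 0.0476). The si2 call held without each library in turn. The si1 call was lost under quantile normalization, median centring and without any 1 library other than si2 replicate 1, and the difference between si2 and si1 was lost without any 1 library.

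SGSH, a sulfatase of heparan sulfate, was at 9.52 and 9.18 FPKM in NC, 14.4 and 12.9 in si1, and 8.97 and 9.14 in si2. The si1 libraries were higher than all others. SGSH rose in si1 by 0.50 (SE 0.0777, adjusted p = 0.00503), was at −0.04 in si2 (SE 0.0777, adjusted p = 0.73), and was lower in si2 than in si1 by −0.54 (SE 0.0777, adjusted p = 0.00204). NAGLU, which acts in the same breakdown of heparan sulfate, was called only in the direct comparison, at −0.36 for si2 against si1 (SE 0.0748, adjusted p = 0.0089), a call lost without si2 replicate 1.

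GAA, which releases glucose from glycogen, was at 17.4 and 16.4 FPKM in NC, 20.3 and 18.9 in si1, and 12.4 and 14.8 in si2. NC lay between the knockdown groups, and no groups overlapped. Neither change from NC passed on the log2(FPKM + 1) scale, at 0.20 in si1 (SE 0.0945, adjusted p = 0.171) and −0.30 in si2 (SE 0.0945, adjusted p = 0.054), whereas si2 was lower than si1 by −0.50 (SE 0.0945, adjusted p = 0.0063). The change in si2 was called by limma voom (−0.32, adjusted p = 0.0104), with the filter at 5 FPKM (adjusted p = 0.029) and without si2 replicate 2 (adjusted p = 0.0421). GLA, which removes galactose from glycolipids, fell in si1 by 0.35 (SE 0.058, adjusted p = 0.00644), a call lost without either NC library, and was higher in si2 than si1 by 0.28 (SE 0.058, adjusted p = 0.00929), lost without si2 replicate 1. GLB1, the beta-galactosidase, rose in si2 by 0.20 (SE 0.0596, adjusted p = 0.046), lost without any 1 of the NC or si2 libraries. HEXA and GUSB, which remove terminal sugars, and ASAH1, the acid ceramidase, were not called, with log2 values from −0.10 to 0.18. GUSB has 11 pseudogenes by name, which summed to 3.24 FPKM. Whether they share reads with GUSB was not tested, so its level is uncertain.

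The cofactors assist the enzymes without being enzymes. PSAP (ENSG00000197746, chr10:71816298-71851375), the precursor of the saposins that present lipids to hydrolases, was at 350 and 375 FPKM in NC, 518 and 529 in si1, and 346 and 366 in si2. It was the most abundant of the 48 genes, and its si1 libraries stood apart while NC and si2 overlapped. PSAP rose in si1 by 0.53 (SE 0.055, adjusted p = 0.00108), was at −0.03 in si2 (SE 0.055, adjusted p = 0.76), and was lower in si2 than in si1 by −0.56 (SE 0.055, adjusted p = 4.71e-04). NPC2, which hands cholesterol to NPC1, rose in si2 by 0.31 (SE 0.0863, adjusted p = 0.0361), a call lost without any 1 of the NC or si2 libraries, and limma voom also called it in si1 (0.24, adjusted p = 0.0418).

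**Figure D2:**
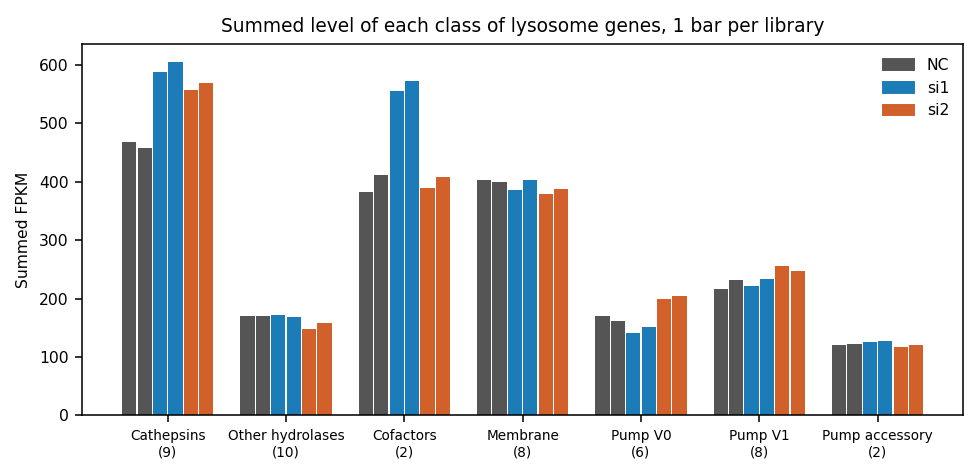
Summed FPKM of each class of lysosome genes, with 1 bar per library and the number of genes in brackets. Cathepsin sums were 557 to 606 in the knockdown libraries and 458 to 467 in NC, and the cofactor sum, which is mostly PSAP, was high in si1 alone at 555 and 572.

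The membrane proteins had 0 genes higher and 2 lower of 8 in si1, and 0 higher and 2 lower in si2. In the higher direction limma had 0 in si1 and 2 in si2 at an unadjusted p under 0.05, and limma voom called 0 in each. All-gene shares were 9.47% higher and 12.9% lower in si1, and 13.6% and 15.4% in si2.

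LAMP1 (ENSG00000185896, chr13:113297241-113323672), a heavily glycosylated protein of the limiting membrane, was at 54.6 and 56.3 FPKM in NC, 54.2 and 51.1 in si1, and 13.7 and 15.2 in si2. Its si2 level was 0.261 of that in NC, with no si2 library near another group. In bulk libraries a lower level in every cell and fewer cells with the transcript cannot be told apart. The log2 change was −1.87 in si2 (SE 0.0715, adjusted p = 4.45e-05) and −0.07 in si1 (SE 0.0715, adjusted p = 0.516), and si2 was lower than si1 by −1.80 (SE 0.0715, adjusted p = 2.71e-05). Over all alternatives the si2 change stayed between −1.94 and −1.80.

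LAMP2, the close relative of LAMP1 whose LAMP2A form serves chaperone-mediated autophagy, was at 68.9 and 63.2 FPKM in NC, 60.6 and 67.2 in si1, and 76.4 and 72.6 in si2. NC and si1 overlapped, and both si2 libraries were highest, but no comparison passed on the log2(FPKM + 1) scale: −0.05 in si1 (SE 0.0754, adjusted p = 0.701), 0.17 in si2 (SE 0.0754, adjusted p = 0.133) and 0.22 between si2 and si1 (SE 0.0754, adjusted p = 0.0571). The last was called by limma voom (0.21, adjusted p = 0.0191), with the filter at 5 FPKM (adjusted p = 0.0343) and without si1 replicate 2 (adjusted p = 0.0287). LAMP3, a more distant relative found in few normal tissues, was at 3.23 and 2.72 FPKM in NC, 2.48 and 2.60 in si1, and 4.06 and 3.5 in si2. Its si2 libraries were above the rest, and si2 exceeded si1 by 0.43 (SE 0.113, adjusted p = 0.0221), a call lost without either si1 library or si2 replicate 1. Against NC it was at −0.16 in si1 (SE 0.113, adjusted p = 0.348) and 0.27 in si2 (SE 0.113, adjusted p = 0.119).

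SCARB2, the receptor that carries glucocerebrosidase to the lysosome, was at 14.1 and 15.2 FPKM in NC, 15.5 and 17.2 in si1, and 9.24 and 9.03 in si2. The si2 libraries were lowest with no overlap. SCARB2 fell in si2 by 0.63 (SE 0.0795, adjusted p = 0.00203), was at 0.14 in si1 (SE 0.0795, adjusted p = 0.239), and was lower in si2 than in si1 by −0.77 (SE 0.0795, adjusted p = 5.56e-04).

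LAMTOR1, the lipid-anchored subunit that fixes the amino acid sensing Ragulator complex to the lysosome, was at 30.7 and 31.4 FPKM in NC, 21.5 and 24.9 in si1, and 33.1 and 36.7 in si2. The si1 libraries were lowest and the si2 libraries highest. LAMTOR1 fell in si1 by 0.41 (SE 0.0887, adjusted p = 0.0186), a call lost without either NC library or si1 replicate 1. It was at 0.16 in si2 (SE 0.0887, adjusted p = 0.215), and si2 exceeded si1 by 0.57 (SE 0.0887, adjusted p = 0.00288), which held without each library in turn.

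MCOLN1, the lysosomal calcium channel, fell in si1 by 0.47 (SE 0.111, adjusted p = 0.0248), a call lost without any 1 of the NC or si1 libraries, and was at −0.36 in si2 (SE 0.111, adjusted p = 0.051). NPC1, which exports cholesterol, was at −0.17 in si1 (adjusted p = 0.146) and −0.21 in si2 (adjusted p = 0.0735). In si2 limma voom called both lower, MCOLN1 at −0.41 (adjusted p = 0.0141) and NPC1 at −0.21 (adjusted p = 0.0238). CD63, a tetraspanin of late endosomes, was at 0.07 in si1 (adjusted p = 0.363) and 0.15 in si2 (adjusted p = 0.0647). The class as a whole had summed levels of 402 and 400 FPKM in NC, 385 and 402 in si1, and 380 and 387 in si2, so the fall of LAMP1 in si2 stood beside near-level sums in which CD63 and LAMP2 were the most abundant members.

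**Figure D3:**
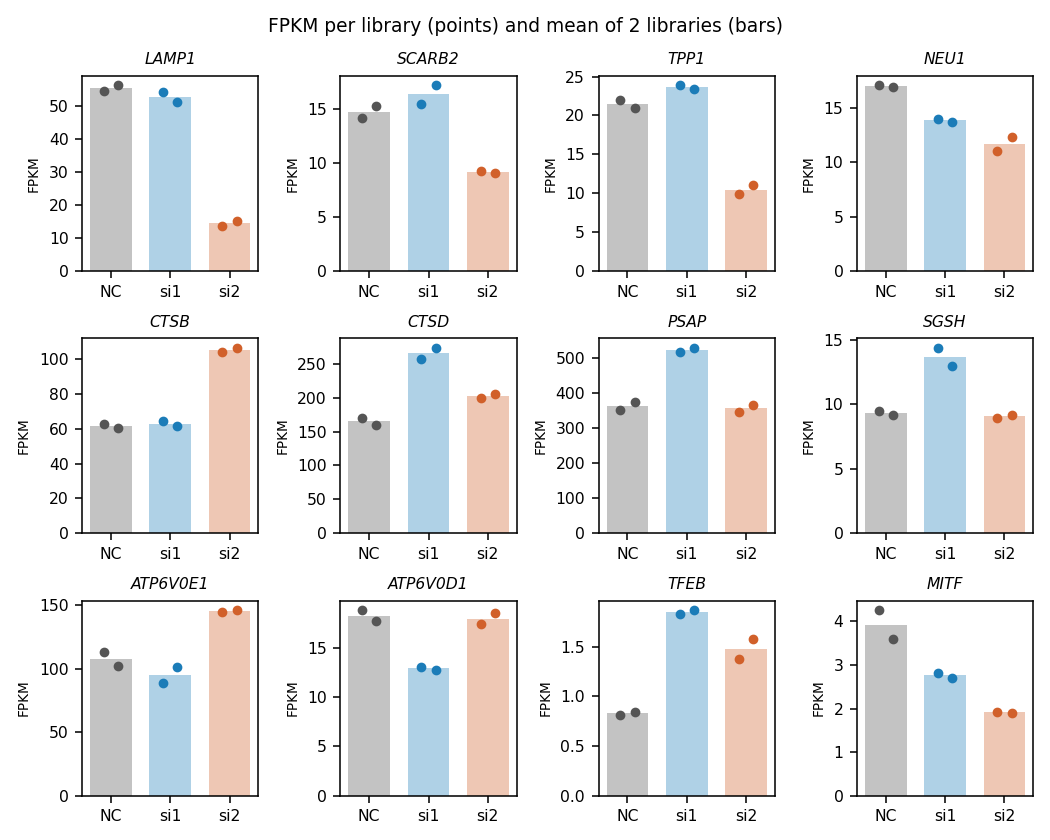
FPKM of 12 of the genes in each library (points) with the mean of the 2 libraries of a group (bars, from 0). LAMP1, TPP1 and SCARB2 were low in both si2 libraries, CTSB was high there, and PSAP and SGSH were high in both si1 libraries.

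Of the 16 proton pump genes, 1 was higher and 5 lower in si1, and 2 were higher and 1 lower in si2. In the direct comparison, 6 were higher and 1 lower in si2 than in si1. Their summed level was 506 and 515 FPKM in NC, 489 and 510 in si1, and 572 and 572 in si2. Within it, ATP6V0E1 alone was at 112.9 and 102.3 FPKM in NC, 88.9 and 101.6 in si1, and 145 and 146 in si2. Of all genes tested, 9.47% were higher and 12.9% lower in si1, and 13.6% and 15.4% in si2. Between si2 and si1, 19.9% were higher and 18.6% lower. The same shares stand beside the V0 and V1 counts below.

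The V0 sector forms the proton channel in the membrane. Of its 6 genes, 2 were lower in si1 and 1 was higher in si2. The summed level was 170 and 161 FPKM in NC, 142 and 151 in si1, and 199 and 205 in si2, most of it ATP6V0E1. ATP6V0E1, a small membrane subunit, was at 112.9 and 102.3 FPKM in NC, 88.9 and 101.6 in si1, and 145 and 146 in si2. Its si2 libraries were highest, and both si1 libraries lay below both NC libraries, the nearest pair at 101.6 and 102.3 FPKM. It rose in si2 by 0.43 (SE 0.08, adjusted p = 0.00856), a call lost without NC replicate 2 or either si2 library, was at −0.17 in si1 (SE 0.08, adjusted p = 0.166), and was higher in si2 than si1 by 0.61 (SE 0.08, adjusted p = 0.00146), which held without each library in turn.

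ATP6V0A2, 1 of the forms of the large subunit a, was at 3.67 and 3.48 FPKM in NC, 2.21 and 2.16 in si1, and 3.86 and 2.97 in si2. Both si1 libraries were lowest, while NC fell within the range of si2. It fell in si1 by 0.52 (SE 0.121, adjusted p = 0.0227), a call lost without any 1 of the NC or si1 libraries, was at −0.06 in si2 (SE 0.121, adjusted p = 0.756), and was higher in si2 than si1 by 0.46 (SE 0.121, adjusted p = 0.0218), a call lost without either si1 library or si2 replicate 1. ATP6V0D1, subunit d of the central stalk, fell in si1 by 0.47 (SE 0.0713, adjusted p = 0.0047), a call lost without NC replicate 1, was at −0.02 in si2 (SE 0.0713, adjusted p = 0.85), and was higher in si2 than si1 by 0.45 (SE 0.0713, adjusted p = 0.00311).

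ATP6V0A1, another form of subunit a, ATP6V0B, a subunit of the rotating ring, and ATP6V0C, the main proteolipid of that ring, were not called by limma on log2(FPKM + 1), with values from −0.23 to 0.15. Limma voom called ATP6V0A1 lower in si2, at −0.29 (adjusted p = 0.0417). ATP6V0C was listed at only 2.01 to 3.80 FPKM, on 51 to 86 reads per library. Of its exon bases, 72.1% are shared on the same strand with AC093525.1 and AC093525.2. AC093525.1 had 0 FPKM throughout, and AC093525.2 had at most 0.0308, in NC replicate 1. How reads there were assigned is not given in the sources used here, so the level of ATP6V0C and its part of the V0 sum are uncertain.

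The V1 sector hydrolyses ATP. Of its 8 genes, 1 was higher and 3 lower in si1, 1 was higher and 1 lower in si2, and 3 were higher and 1 lower in si2 than in si1. ATP6V1C1, subunit C, which joins the sectors, fell in si1 by 0.43 (SE 0.0633, adjusted p = 0.0041) and in si2 by 0.33 (SE 0.0633, adjusted p = 0.00964). Its levels were 18.3 and 17.9 FPKM in NC, 13.2 and 13.2 in si1, and 14.1 and 14.2 in si2, with both knockdown groups below NC. The si1 call held without each library in turn, and the si2 call was lost without any 1 of the NC or si2 libraries.

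ATP6V1A, the catalytic subunit, fell in si1 by 0.28 (SE 0.0798, adjusted p = 0.0473), was at 0.12 in si2 (adjusted p = 0.292), and was higher in si2 than si1 by 0.40 (SE 0.0798, adjusted p = 0.00795). ATP6V1D, of the rotor shaft, fell in si1 by 0.33 (SE 0.0742, adjusted p = 0.0203), was at 0.05 in si2 (adjusted p = 0.625), and was higher in si2 than si1 by 0.38 (SE 0.0742, adjusted p = 0.00686). ATP6V1E1, of the outer stalk, was called only between si2 and si1, at 0.36 (SE 0.0915, adjusted p = 0.0193). The differences between si2 and si1 were lost without si2 replicate 2 for ATP6V1A and ATP6V1D and without either si2 library for ATP6V1E1. The fall of ATP6V1A in si1 was lost without any 1 library other than si1 replicate 2 and under median centring, and that of ATP6V1D without either NC library or si1 replicate 1.

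ATP6V1B2, a nucleotide-binding partner of ATP6V1A, went the other way between the groups, at −0.30 for si2 against si1 (SE 0.086, adjusted p = 0.029), a call lost without either si1 library or si2 replicate 2. ATP6V1F rose in si1 by 0.34 (SE 0.084, adjusted p = 0.0275), and 23.7% of its exon bases lie opposite KCP, so without known strand handling its reads are uncertain. ATP6V1G1 rose in si2 by 0.38 (SE 0.0991, adjusted p = 0.0285). The ATP6V1F call was lost without any 1 library other than NC replicate 2, and the ATP6V1G1 call without NC replicate 1 or si2 replicate 1. Limma voom also called ATP6V1G1 higher in si1, at 0.25 (adjusted p = 0.0439). ATP6V1H was at −0.15 in si1 and 0.01 in si2 and was not called. The accessory proteins ATP6AP1 and ATP6AP2, which help assemble the pump, were not called, with log2 values from −0.11 to 0.28. For them limma had 0 in si1 and 1 in si2 at an unadjusted p under 0.05, and limma voom called 0 and 1.

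**Figure D4:**
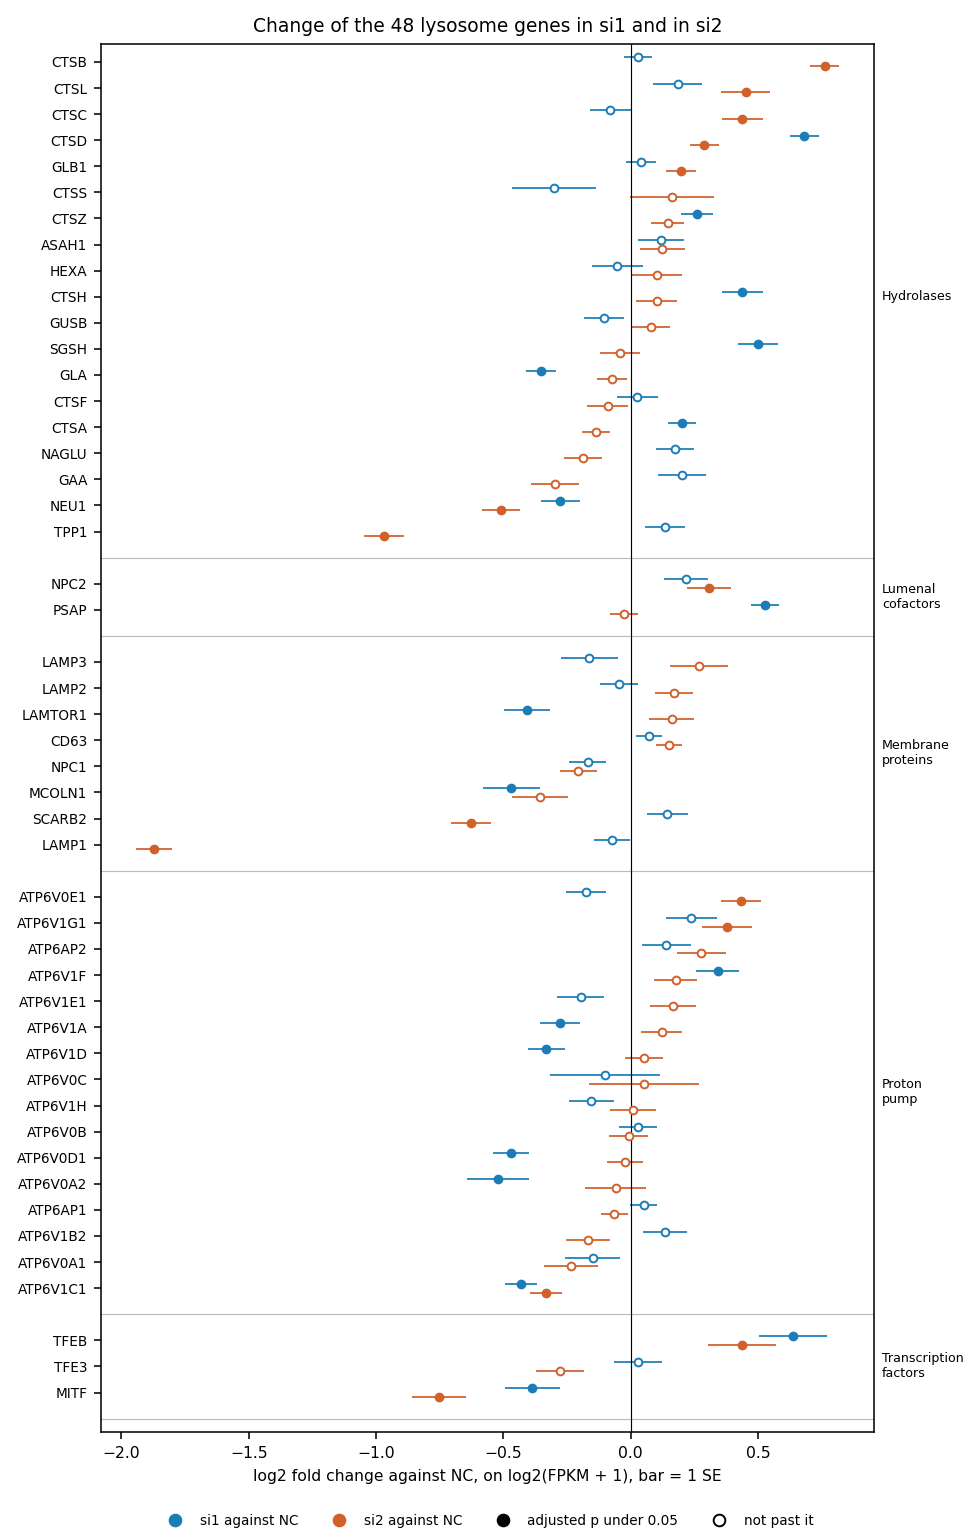
Log2 fold change of each of the 48 genes in si1 and in si2 against NC, on the log2(FPKM + 1) scale with bars of 1 SE and filled points for an adjusted p under 0.05. LAMP1 at −1.87 in si2 lies far from the others, which span −0.97 to 0.76. Of the 16 pump genes, 5 were called lower and 1 higher in si1, where 12.9% and 9.47% of all genes were.

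Of the 3 transcription factors, 1 was higher and 1 lower in si1, and 1 higher and 1 lower in si2. All-gene shares were 9.47% higher and 12.9% lower in si1, and 13.6% and 15.4% in si2. TFEB, a main regulator of lysosome genes, was at 0.816 and 0.847 FPKM in NC, 1.83 and 1.87 in si1, and 1.38 and 1.58 in si2. All knockdown libraries were above both NC libraries, and si1 was above si2. TFEB rose by 0.64 in si1 (SE 0.134, adjusted p = 0.016) and by 0.44 in si2 (SE 0.134, adjusted p = 0.048), on 77 to 179 reads per library. As its NC level was below the pseudocount, this scale understates the change, and limma voom on the recovered reads gave 1.16 in si1 (adjusted p = 2.62e-04) and 0.82 in si2 (adjusted p = 0.00804). On the log2(FPKM + 1) scale the si1 call was lost without any 1 of the NC or si1 libraries, and the si2 call without any 1 library and in the fit of NC and si2 alone. Without the filter on low values, which TFEB passed only through the knockdown groups, neither was called (adjusted p = 0.0661 in si1 and 0.135 in si2), and the si2 call was also lost with a replicate block (adjusted p = 0.0747). The voom fit used the same filter, so its values for TFEB carry the same limit. The values of TFEB and the counts that include it are therefore a description of these libraries.

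MITF, the melanocyte regulator of the same family, was at 4.27 and 3.59 FPKM in NC, 2.82 and 2.71 in si1, and 1.93 and 1.91 in si2. The groups did not overlap, in the order NC, si1, si2. MITF fell by 0.39 in si1 (SE 0.108, adjusted p = 0.0426) and by 0.75 in si2 (SE 0.108, adjusted p = 0.00328), and si2 was lower than si1 by −0.37 (SE 0.108, adjusted p = 0.0337). The si2 call held without each library in turn. The si1 call was lost without any 1 library and under median centring, and the difference between the knockdown groups without any 1 of the si1 or si2 libraries. The melanocyte markers MLANA, PMEL, TYR and DCT summed to 0.865 to 1.04 FPKM in NC, 0.772 to 0.918 in si1 and 0.708 to 1.05 in si2, with TYR at 0.

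TFE3 was the most abundant of the family, at 13.3 and 14.4 FPKM in NC, 15.4 and 13 in si1, and 11.4 and 11.1 in si2. NC and si1 overlapped, and both si2 libraries were lowest. It was at 0.03 in si1 (SE 0.094, adjusted p = 0.861) and −0.28 in si2 (SE 0.094, adjusted p = 0.065), and si2 was lower than si1 by −0.31 (SE 0.094, adjusted p = 0.0392), a call lost without any 1 library other than si1 replicate 2. The change in si2 was called by limma voom (−0.30, adjusted p = 0.0267), with the filter at 5 FPKM (adjusted p = 0.0393), and with either or both si1 libraries left out (adjusted p from 0.0259 to 0.0267).

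The wider pathway was taken as 123 other lysosome genes in 6 lists, of which 106 passed the filter. Of these, 5 were higher and 13 lower in si1, which is 4.72% and 12.3% beside 9.47% and 12.9% of all genes. In si2, 13 were higher and 19 lower, or 12.3% and 17.9% beside 13.6% and 15.4%. The medians were −0.05 and −0.09. The si1 split depended on scaling: it was 10 higher and 12 lower after quantile normalization, 12 and 11 after median centring, and 17 and 17 with voom. In the direct comparison 25 were higher and 24 lower in si2 than in si1, or 23.6% and 22.6% beside 19.9% and 18.6% of all genes. Without either NC library the si1 and si2 counts fell, and the si2 count also fell without either si2 library. The count between si2 and si1 fell most without si2 replicate 1. In each of these fits the share of all genes called fell too. The shares of all genes given here, 9.47% and 12.9% in si1 and 13.6% and 15.4% in si2, also stand beside the 6 lists below.

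Among 31 other hydrolases and activators tested, 2 were higher and 6 lower in si1, and 5 higher and 6 lower in si2. PPT1, which removes palmitate from proteins, was at 34.4 and 34.4 FPKM in NC, 46.8 and 50.1 in si1, and 63.4 and 63.0 in si2, with no overlap between groups. It rose by 0.86 in si2 (SE 0.0602, adjusted p = 2.7e-04) and by 0.48 in si1 (SE 0.0602, adjusted p = 0.0021). Of the exon bases of PPT1, 23.4% lie opposite CAP1, so without known strand handling its reads are uncertain. GM2A, the activator that lifts gangliosides for HEXA, was at 10.7 and 11.2 FPKM in NC, 4.92 and 5.36 in si1, and 11.4 and 12.7 in si2. Its si1 libraries alone were low: it fell in si1 by 0.96 (SE 0.0842, adjusted p = 5.74e-04) and was at 0.12 in si2 (SE 0.0842, adjusted p = 0.31). SGPL1, in the list though it is an enzyme of the endoplasmic reticulum, fell in si1 by 1.09 (SE 0.0902, adjusted p = 4.68e-04). CTSO, a further cysteine protease, rose in si2 by 0.70 (SE 0.143, adjusted p = 0.0123), a call lost without NC replicate 2 or si2 replicate 1.

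Among 19 other membrane proteins tested, 2 were higher and 3 lower in si1, and 3 higher and 2 lower in si2. CD164, a sialomucin, rose in si2 by 0.94 (SE 0.0729, adjusted p = 3.85e-04) and OSTM1, partner of the chloride transporter CLCN7, by 0.67 (SE 0.0911, adjusted p = 0.00266). LAPTM4B, a transmembrane protein of late endosomes, fell in si2 by 0.69 (SE 0.0781, adjusted p = 0.00134). PLD3, a nuclease of the lysosome lumen, fell in si1 by 0.87 (SE 0.0817, adjusted p = 7.55e-04). SLC36A1, an amino acid transporter, fell by 0.79 in si1 (SE 0.0937, adjusted p = 0.00179) and by 0.60 in si2 (SE 0.0937, adjusted p = 0.00448). These calls held without each library in turn, except that SLC36A1 was tested this way only in si1.

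Among 10 other pump subunits and assembly factors tested, 0 were higher and 1 lower in si1, and 2 higher and 1 lower in si2. In the higher direction in si1 limma had 1 at an unadjusted p under 0.05, and limma voom called 0. ATP6V0D2, a form of subunit d known from osteoclasts and macrophages, was at 1.47 and 2.01 FPKM in NC, 0.874 and 0.903 in si1, and 4.61 and 5.85 in si2. The groups did not overlap, and the level in si2 was 3.01 times that in NC. ATP6V0D2 rose in si2 by 1.18 (SE 0.15, adjusted p = 0.002), fell in si1 by 0.53 (SE 0.15, adjusted p = 0.045), a call lost without any 1 library, and differed between the groups by 1.71 (SE 0.15, adjusted p = 2.94e-04). The 6 macrophage and osteoclast markers, which include this gene, summed to 2.70 to 3.79 FPKM in NC, 2.25 to 2.92 in si1 and 6.22 to 7.84 in si2. ATP6V0D2 made up most of that in si2, and the other 5 summed to 1.22 to 1.79 in NC, 1.35 to 2.04 in si1 and 1.61 to 1.99 in si2, where the groups overlapped. The defining marker PTPRC was at 0.0392 to 0.122 throughout. VMA21, an assembly chaperone of the pump, fell in si2 by 0.40 (SE 0.085, adjusted p = 0.0143), a call lost without either NC library or si2 replicate 2.

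Among 14 genes for enzyme sorting tested, 0 were higher and 1 lower in si1, where 9.47% and 12.9% of all genes were. In si2, 0 were higher and 6 lower, where 13.6% and 15.4% of all genes were. In the higher direction limma had 2 in si1 and 1 in si2 at an unadjusted p under 0.05, and limma voom called 2 and 1. The 6 lower genes, named here because they were called, were NAGPA and GNPTG, which build the mannose 6-phosphate tag, the adaptor genes AP1M1, AP3D1 and GGA3, and SUMF1, which activates sulfatases. Their log2 changes in si2 ranged from −0.39 for NAGPA (SE 0.0907, adjusted p = 0.0194) to −0.32 for AP3D1 (SE 0.0813, adjusted p = 0.025). GGA3 was also the gene that fell in si1, by 0.44 (SE 0.0781, adjusted p = 0.00883), a call lost without either NC library. In si2 the calls of NAGPA and AP1M1 were lost without any 1 of the NC or si2 libraries, and that of GNPTG without NC replicate 2 or either si2 library. The si2 calls of GGA3, SUMF1 and AP3D1 were not tested with a library left out. Of the exon bases of GNPTG, 30.9% lie opposite other genes, so without known strand handling its reads are uncertain. SUMF1 was lower in si2 than in si1 by −0.59 (SE 0.0806, adjusted p = 0.00166) and AP3D1 by −0.54 (SE 0.0813, adjusted p = 0.00249). Both of these differences between si2 and si1 held without each library in turn.

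Among 17 genes of nutrient sensing tested, 0 were called in si1 by limma, with 4 at an unadjusted p under 0.05 and 3 called by limma voom, all 3 higher. In si2, 1 was higher and 2 lower. FLCN, a regulator of the Rag GTPases, fell by 0.41 (SE 0.118, adjusted p = 0.0394), its partner FNIP1 fell by 0.29 (SE 0.0738, adjusted p = 0.0271), and its other partner FNIP2 rose by 0.39 (SE 0.113, adjusted p = 0.041). The FLCN call was lost without any 1 library other than si2 replicate 2, and those of FNIP1 and FNIP2 without any 1 of the NC or si2 libraries.

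Among 15 genes for lysosome movement, 1 was higher and 2 lower in si1, and 2 higher and 2 lower in si2. PLEKHM2, which links lysosomes to kinesin, was at 21.1 and 19.2 FPKM in NC, 26.4 and 25.0 in si1, and 9.60 and 9.66 in si2. The groups did not overlap: it fell in si2 by 0.99 (SE 0.0735, adjusted p = 3.23e-04), rose in si1 by 0.34 (SE 0.0735, adjusted p = 0.0187), and differed between them by −1.33 (SE 0.0735, adjusted p = 6.07e-05). The rise in si1 was lost without either NC library or si1 replicate 1. RAB7A, the GTPase of late endosomes and lysosomes, fell in si1 by 0.23 (SE 0.0519, adjusted p = 0.0215) and rose in si2 by 0.17 (SE 0.0519, adjusted p = 0.0438). Its fall in si1 was lost without any 1 of the NC or si2 libraries, and its rise in si2 was not tested with a library left out.

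**Figure D5:**
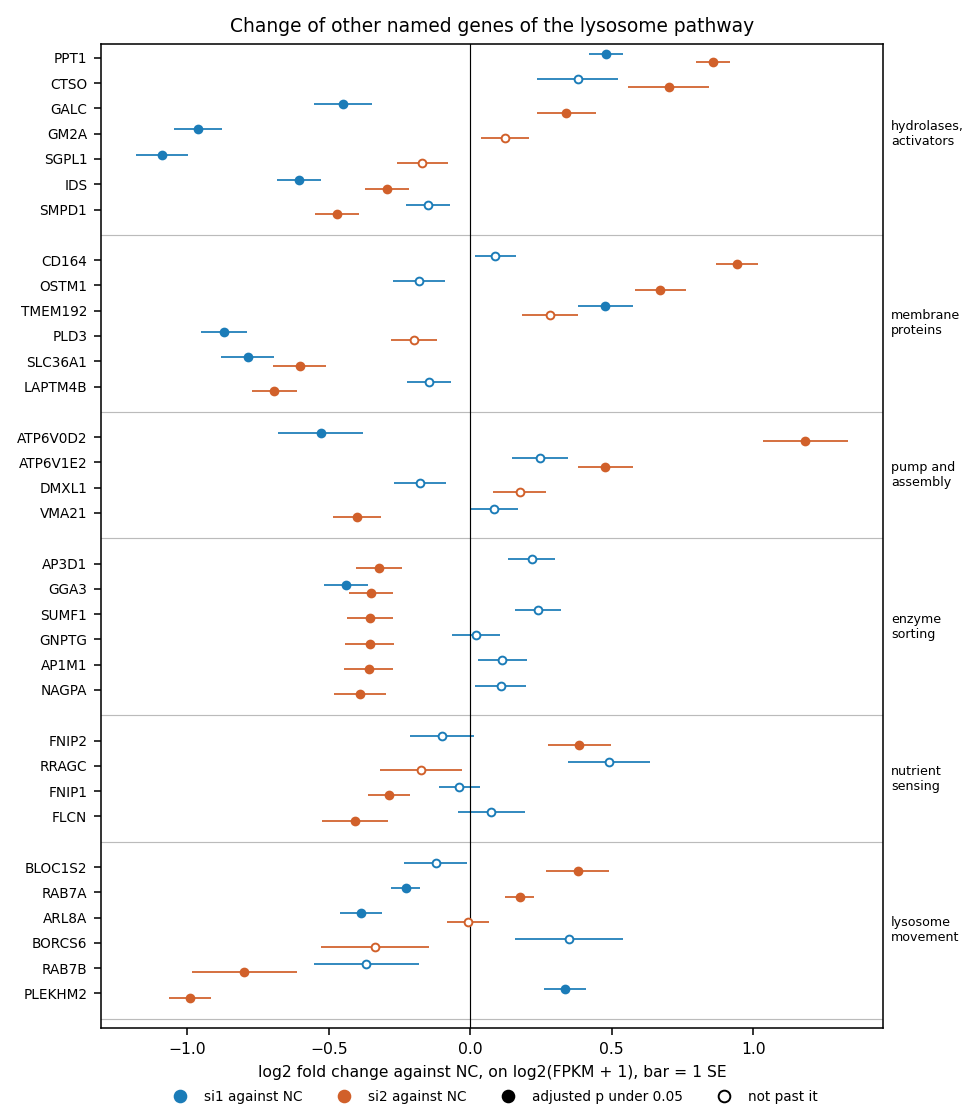
Log2 fold change in si1 and in si2 against NC of the named genes of the 6 other lists, with bars of 1 SE and filled points for an adjusted p under 0.05. PLEKHM2 and ATP6V0D2 lie on opposite sides of 0 in si1 and si2 in the plot, and the sorting genes shown are the 6 that were called lower in si2.

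Marker levels that moved with the groups are given with these results. TP63 rose in si2 by 0.85, from 5.97 and 6.25 FPKM in NC to 12.8 and 10.9, and was at 5.37 and 5.34 in si1. The 4 fibroblast markers summed to 17.1 to 17.5 FPKM in NC, 19.9991 to 24.98 in si1 and 22.9 to 23.4 in si2, nearly all of it COL1A1, with COL3A1 at 0 to 0.0388. The 5 simple epithelium markers summed to 179 to 194 in NC, 228 to 229 in si1 and 153 to 165 in si2. These markers did not move together. In si2 KRT19 fell by 0.70 (adjusted p = 0.00127). KRT18 rose there by 0.27 (adjusted p = 0.0279) and EPCAM by 0.36 (adjusted p = 0.0216), while KRT8 was at −0.14 and not called. In si1 KRT8, KRT19 and EPCAM rose by 0.39, 0.33 and 0.33, and KRT18 was not called. CDH1 was at or below 0.256 FPKM throughout. The 3 endothelial markers summed to 0.256 to 0.441 over all libraries, with CDH5 at 0. The part of these levels in the lysosome results was not tested.

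Finally, 2 heptamers in 3′ UTRs were looked up because an earlier analysis of these same data had linked them to lower levels, GTCTGCA in si2 and ACTCTCT in si1. They were chosen on these libraries, so the values are a description. GTCTGCA stood in the 3′ UTR of 1093 of 10574 tested genes (10.3%), whose median change in si2 was −0.17, beside 0.02 for the rest. ACTCTCT stood in 974 (9.21%), whose median change in si1 was −0.12, beside 0.00. Of 46 of the lysosome genes with a 3′ UTR in GENCODE release 29, 4 carried GTCTGCA, and the sites are shown on the strand of each gene, in hg38 coordinates, because LAMP1 is among them: LAMP1 at chr13:113323177-113323197, PSAP at chr10:71817281-71817301, ATP6V0A1 at chr17:42521393-42521413 and ATP6V1A at chr3:113811025-113811045.
LAMP1: tgggcgtctctaatGTCTGCA
PSAP: attgtagcattgctGTCTGCA
ATP6V0A1: ctggtggtgagccaGTCTGCA
ATP6V1A: ataataatttatgtGTCTGCA
In si2 against NC these genes were at −1.87, −0.03, −0.23 and 0.12 respectively, so on this scale LAMP1 passed the test and the other 3 did not. ACTCTCT stood in LAMP3, ATP6V0E1, ATP6V1A and ATP6V1C1, which in si1 were at −0.16, −0.17, −0.28 and −0.43, the last 2 past the test. Carrying these letters is not evidence that a reagent acted on a transcript, and this was not tested.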

How the data were processed

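RNA was sequenced from 6 libraries, 2 each of NC, si1 and si2. The deposited values are FPKM, computed by the authors, for 58735 genes with a gene length, per the file headers. The submitters' processing notes name hg38. The aligner, read counter and annotation version are not given in the sources used here. Every gene matched GENCODE release 29 in start and end. FPKM times gene length gave whole reads, within 0.001, for 100% of values, which recovered the depth. Samples were grouped by the library names in the labels.

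The test was limma 3.58.1 in R 4.3.3 on log2(FPKM + 1), so fold changes of low genes are understated. A mean of 1 FPKM or more was required, which left 12319 genes. The fit held 1 coefficient per group over all 6 libraries with a variance trend, which left 3 residual degrees of freedom. Tests were two-sided, adjusted by Benjamini-Hochberg over all genes, and called at 0.05. The 4 contrasts were si1 against NC, si2 against NC, si2 against si1, and NC against the average of both knockdown groups, signed as knockdown minus NC. The fit was tested on simulated data. Errors are limma's standard error (SE).

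The 48 genes, the other lists, the markers and the tests were chosen with earlier results of these data known. Values per library are given for each of the 48 called with an absolute log2 change of at least 0.5 in si1, si2 or between them, and for TFEB, TFE3, MITF, LAMP1, LAMP2 and LAMP3. From each other list the text draws on the 3 genes with the largest change among those called in each contrast. Others of the lists, such as those of enzyme sorting, and the marker genes were named after their values were seen. Alternatives were other pseudocounts, filters, normalizations and spread estimates, a replicate block, voom on the recovered reads, and each library left out. Promoter sequences came from RefSeq (GRCh38.p14). The limit for 0 reads, taken as 3 reads, covers counting error only.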

Additional observations from a re-analysis of the deposited data

Results flagged for a closer look

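These results stand out because the direct test of si2 against si1 found a difference of at least 1 on the log2 scale, or because si1 and si2 each passed against NC in opposite directions. With 2 libraries a group, no library could be tested as an outlier. Among the 48 genes, LAMP1 was lower in si2 than in si1 by −1.80 (SE 0.0715), with 14.4 ± 1.03 FPKM in si2 and 52.7 ± 2.19 in si1 (SD, n = 2). TPP1 was lower by −1.10 (SE 0.0774), with 10.5 ± 0.899 and 23.6 ± 0.331 FPKM.

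Among the other lysosome genes, GM2A was higher in si2 than si1 by 1.09 (SE 0.0842), ATP6V0D2 by 1.71 (SE 0.15), GALC by 0.79 (SE 0.104), FUCA1 by 0.68 (SE 0.0872) and RAB7A by 0.40 (SE 0.0519). PLEKHM2 was lower by −1.33 (SE 0.0735). For GALC, which removes galactose from myelin lipids, the changes from NC were −0.45 in si1 (SE 0.104) and 0.34 in si2 (SE 0.104). For FUCA1, which removes fucose from glycans, they were −0.36 in si1 (SE 0.0872) and 0.33 in si2 (SE 0.0872). The changes of GALC and FUCA1 from NC were not tested with a library left out. ATP6V0D2, PLEKHM2 and RAB7A also passed in opposite directions, as given in the report.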

How the results depend on the processing

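Of 58 called results of the 48 genes, 23 kept their call under every alternative and 35 lost it under at least 1, and no result changed sign after being called. Of 47 called results of the other lysosome genes named for their large changes, 23 kept theirs. Without the filter on low values, which raised the genes tested, the called members numbered 7 in si1, 9 in si2 and 8 for the mean of both against NC, and the other lysosome genes 10 in si1, 10 in si2 and 26 between si2 and si1. Of all genes, 4.78%, 6.04%, 10.6% and 3.81% were then called in si1, si2, between them and for the mean. With voom the other lysosome genes called in si1 numbered 34 (32.1%, beside 30.4% of all genes). For the mean of both, the count of the 48 was 10 without a variance trend, where 17.3% of all genes were called. It was 0 with the 4 knockdown libraries as 1 group. There, 8 of the 48 had an unadjusted p under 0.05 and 0.682% of all genes were called.

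Leaving out 1 library gave, for the 48 genes, 4 to 14 in si1, 6 to 19 in si2, 16 to 23 between si2 and si1 and 3 to 17 for the mean of both. The 16 was without si2 replicate 1 and the 3 without NC replicate 1. The mean also had 5 without NC replicate 2, 10 without si2 replicate 1 and 9 without si2 replicate 2. The other lysosome genes gave 6 to 20 in si1, 9 to 41 in si2 and 28 to 43 between si2 and si1. The share of all genes called fell along with the lowest of these counts. For the mean without NC replicate 1, the share of the 48 called was near that of all genes. The share of the 48 was above that of all genes for the mean in the other fits, and between si2 and si1 in each fit. Whether the 48 differ from all genes in these fits was not tested. A fit without 1 library assumes that the lone library of a group varies like the others.

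No effect shared by replicate number was visible over all genes: deviations of same-numbered libraries correlated at −0.052, 0.0503 and −0.0577. Whether the libraries were paired by culture or day is not given in the labels and cannot be told from these values. With a replicate block the counts were 13 in si1, 13 in si2, 23 between si2 and si1, and 11 for the mean. Of all genes, 19%, 25.3%, 35% and 16.7% were then called. Voom split the calls in si2 into 10 higher and 11 lower, where 36.3% of all genes were called. Depth limited TFEB, CTSS and ATP6V0C most, which rested on 51 to 179 reads per library.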
